A study of Arabidopsis thaliana with 14 samples.

Results

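The xyloglucan endotransglucosylase/hydrolase genes *XTH1* to *XTH33* and 18 alpha-expansin (*EXPA*) genes of *Arabidopsis thaliana* were followed through a drought time course of a brassinosteroid (BR) receptor mutant. A probe was assigned to a member when the locus in its annotation was that member's, without use of any measured value, and all 51 members of the 28327 loci on the array were found, on 52 probes. A locus was tested if both arrays of some condition had it well above background in 1 genotype or the other, which 47 members (30 *XTH* and 17 *EXPA*) and 22811 genes in all met. *XTH1* (AT4G13080), *XTH2* (AT4G13090), *XTH26* (AT4G28850) and *EXPA2* (AT5G05290) did not, and they have no test here. Of the 47, 37 were above background in all 28 channels, whereas 10 were so in only some and may have passed through the group in which they were high, so counts over the 47 describe the measured members only.

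XTH enzymes act on xyloglucan, the hemicellulose that coats cellulose in the growing primary wall: most cut a xyloglucan chain and join the new end to another chain, and a few hydrolyse it. Alpha-expansins loosen the wall at low pH without cutting its polymers, by loosening contacts between cellulose and its matrix. BRs are plant steroids that promote cell elongation, in part through wall genes of both families, and they are perceived by the receptor kinase BRI1 and its homologues BRL1 and BRL3, with BAK1 as a co-receptor.

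Each of 14 2-colour arrays set *quad* against Col-0 wild type (WT) in 1 of 7 conditions: day 0, and drought and water at days 2, 4 and 6. Drought plants had their watering stopped on day 0 and water plants were watered as usual. By the labels, all plants had 7 days on plates and 16 days on soil under 16 h of light and 8 h of dark at 22 ºC before the treatment, were 28 days old, and were taken as mature whole plants. The study's methods speak both of entire plants and of rosettes, several pooled into a biological replicate. *quad* is the quadruple mutant *bri1 bak1 brl1 brl3*, with a weak, point-mutation allele of *BRI1* that leaves some receptor function, and both genotypes share the Col-0 background and every treatment. A condition had 2 arrays, with *quad* in Cy5 on replicate 1 and in Cy3 on replicate 2. The labels themselves do not say that the replicates came from separate plants. The p-values measure the spread between these arrays, whose number of 2 a condition limits the precision of every value.

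Across all genes tested, the log2 *quad*/WT ratios of the replicates correlated with r between 0.523 (day 6 drought) and 0.888 (day 2 water), a description over genes of arrays that share a condition. The members had the same sign in both replicates for 32 (day 6 drought) to 43 (day 2 water) of 47. Replicate 1 of day 4 drought had the most outlier spots (126). Its deposited ratios correlated with the scanner's log ratios with r = 0.679, against 0.92 or more on every other array. The probes of *BAK1*, *BRL1* and *BRL3* were lower in *quad*, with a mean log2 ratio of -2.04, -1.66 and -1.18, whereas *BRI1* was at 0.38. The *BRI1* probe does not check a point mutation. All 8 leaf photosynthesis markers were above background in every condition and genotype, with a summed log2 level of 16.56 to 17.21 in *quad* and 17.10 to 18.03 in WT. Of 12 root markers (a list with *PYK10* and the *CASP* genes) 8 to 12 were above background in every condition and genotype, so transcripts of root genes were present, and the summed log2 level was 13.74 to 14.36 in *quad* and 13.25 to 14.53 in WT. For 12 flower markers that range was 12.28 to 14.79 in *quad* and 11.40 to 14.63 in WT, and for 8 root hair markers 9.25 to 9.88 in *quad* and 9.25 to 10.15 in WT. In such bulk material, fewer cells of a type and less RNA per cell cannot be told apart.

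The members differed between *quad* and WT in either direction and mostly by less than the study's limit for a call, an adjusted p under 0.05 with an absolute log2 ratio over 1.5 (limma, Benjamini-Hochberg over all genes tested). In 1 or more conditions 8 of 47 were called: *XTH3*, *XTH7*, *XTH15*, *XTH20*, *XTH22*, *EXPA7*, *EXPA8* and *EXPA17*. "Higher" and "lower" at the p limit mean here an adjusted p under 0.05 with no limit on size. By that limit 18 members were higher in 1 or more conditions and lower in others. The share of all genes called in any condition, or changed both ways, was not computed, so neither count has a background.

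At day 0, 6 members were higher and 7 lower in *quad* at the p limit, against 3.52% and 6.57% of all genes, and 1 was called (*XTH15*), against 0.736% of all genes. Under drought at day 2, 2 were higher and 24 lower (background 5.74% and 11.9%), and 3 were called (0.894%). The 24 lower members were 51.1% of the 47. At day 2 water, 11 were higher and 10 lower (13.4% and 8.06%), and 2 were called (1.65%). At day 4 drought, 7 were higher and 10 lower (3.31% and 2.59%), with 1 called (0.272%), and at day 4 water 14 were higher and 7 lower (5.12% and 7.99%), with 2 called (1.04%). At day 6 drought, 5 were higher and 11 lower (4.94% and 7.08%), with 1 called (0.443%), and at day 6 water 13 were higher and 13 lower (7.78% and 6.78%), with 2 called (0.469%). In each condition the members at the p limit were a larger share of the 47 than all such genes were of those tested.

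These counts rest in part on the normalisation and on single arrays. With arrays only centred on their median, 1 member at day 0 passed the p limit, 10 under drought and 7 under water at day 2, 1 and 5 at day 4, and 3 and 5 at day 6. The share of all genes at the p limit was not computed for that setting. Of the 13 members at the p limit at day 0, 4 and 2 were counted without replicate 1 and without replicate 2. The 21 at day 2 water became 12 without replicate 1, the 17 at day 4 drought became 7 without replicate 2, the 21 at day 4 water became 10 without replicate 1 and 8 without replicate 2, and the 26 at day 6 water became 14 and 13. The calls became 5 at day 2 drought without replicate 2, 1 and 4 at day 2 water without replicate 1 and without replicate 2, 1 at day 4 water without replicate 1, and 2 at day 6 drought without replicate 2.

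**Figure D1:**
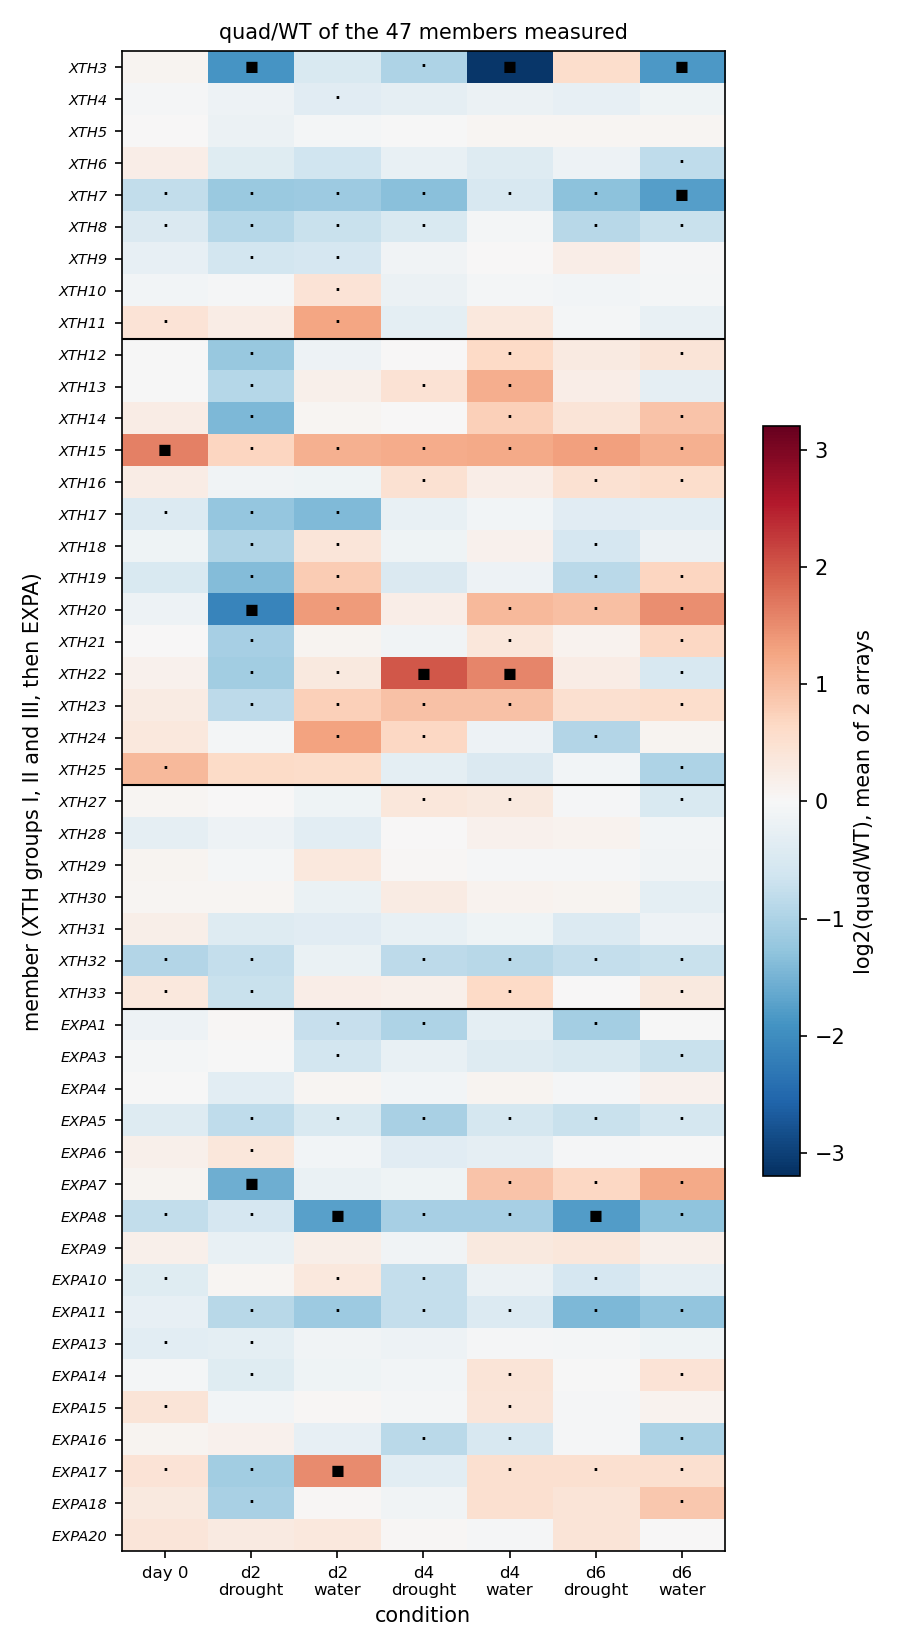
Mean log2 *quad*/WT ratio of the 47 measured members (rows, *XTH* groups I to III above the *EXPA* genes) in the 7 conditions (columns, days 0 to 6, drought left of water). Colour runs over ±3.2 on the log2 scale, a dot marks an adjusted p under 0.05 and a square a call; *XTH7*, *EXPA5*, *EXPA8* and *EXPA11* are below 0 and *XTH15* above 0 in every column, and most group II rows are below 0 at day 2 drought.

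The 3 phylogenetic groups of the *XTH* family did not move as one. In group I (9 of 11 measured), the median log2 ratio was -0.38 under drought and -0.48 under water at day 2, with -0.30 at day 4 drought and -0.23 at day 6 water, and 6 of 9 were lower in the mean over conditions with 1 higher. In group II (14 of 15), the median was -1.01 at day 2 drought, and 0.35, 0.51 and 0.48 under water at days 2, 4 and 6. Its size moved with the treatment of dim signals, to 0.55 at day 2 water with no offset. With the scanner's processed signals it was 1.17 at day 4 water and -1.32 at day 2 drought. In group III (7 of 7) the median lay between -0.21 and 0.10 in each condition, but was -0.57 at day 2 drought with the scanner's processed signals and -0.40 at day 6 water with no offset. In the *EXPA* genes (17 of 18) it lay between -0.32 (day 2 drought) and -0.02, with the *EXPA* medians at day 0 (0.04) and day 6 water (0.11) above 0 when arrays were only centred on their median. The medians of groups I and II named here kept their sign under each scaling tried. The median over all genes tested lay within 0.02 of 0 in each condition. For the *EXPA* genes at day 4 drought, 16 of 17 had a ratio below 0, 6 of them lower at the p limit and none higher. Replicate 1 of that condition was the array with 126 outlier spots.

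Averaged over the 7 conditions, 10 of 47 members were higher and 19 lower in *quad* at the p limit, against 17.5% and 19.4% of all genes, and none was called, against 0.0745%. The steadiest differences belonged to a handful of members. *XTH7*, *EXPA5*, *EXPA8* and *EXPA11* were lower in *quad* on all 14 arrays, and *XTH15* was higher on all 14. A further 7 (*EXPA3*, *EXPA13*, *XTH4*, *XTH8*, *XTH17*, *XTH31* and *XTH32*) were lower on 12 or 13 arrays, and *EXPA20* and *XTH23* were higher on 12. Of these, *XTH31* was above background in only 19 of 28 channels and passed the p limit in no condition.

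*XTH7* (AT4G37800, group I) was lower in *quad* in every condition. Its normalised log2 intensity was 11.15 to 12.13 in *quad* and 12.61 to 13.33 in WT, so the 14 *quad* channels lay below all 14 WT channels. The log2 ratio of an array ran between -2.02 and -0.48, with a mean of -1.16 ± 0.04 (SE, n = 14 arrays, adjusted p = 2.45e-09). The gap was widest at day 6 water, with 11.26 and 11.15 in *quad* against 12.79 and 13.17 in WT (log2 ratio -1.77 ± 0.10, SE, adjusted p = 1.18e-06), the condition in which it was called.

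Among the expansins, *EXPA8* (AT2G40610) differed most, with a mean log2 ratio of -1.18 ± 0.05 (SE, adjusted p = 1.58e-08) and array values between -1.92 and -0.41. It was called at day 2 water, with 10.17 and 10.18 in *quad* against 11.76 and 12.09 in WT (log2 ratio -1.75), and at day 6 drought, with 11.40 and 11.37 in *quad* against 13.11 and 13.26 in WT (log2 ratio -1.80). At day 2 drought the ratio was -0.53, and the change of the ratio between drought and water at day 2, 1.22 ± 0.19 (SE), had an adjusted p of 0.000649 but was below the size limit. *EXPA8* rose with drought at day 6 in both genotypes and stayed lower in *quad*.

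*EXPA11* (AT1G20190) had a mean log2 ratio of -0.89 ± 0.04 (SE, adjusted p = 1.36e-08), with arrays between -1.46 and -0.17. At day 6 drought it measured 8.71 and 8.52 in *quad* against 10.17 and 9.94 in WT, and at day 0, 8.27 and 8.44 in *quad* against 8.44 and 8.80 in WT. The difference was thus smallest at day 0, where it missed the p limit (log2 ratio -0.26, adjusted p = 0.131). *EXPA5* (AT3G29030), known as a BR-responsive expansin of growing tissue, had a mean log2 ratio of -0.66 ± 0.05 (SE, adjusted p = 1.19e-06), with arrays between -1.17 and -0.27.

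*XTH32* (AT2G36870), of the group III branch that holds hydrolase-type enzymes, was lower on 13 of 14 arrays, with a mean log2 ratio of -0.74 ± 0.08 (SE, adjusted p = 1.58e-05). The exception was replicate 1 of day 2 water, at 0.12, where replicate 2 was at -0.53. *XTH8* (AT1G11545) was lower by up to 0.92 on the log2 scale (day 2 drought, *quad* 9.55 and 9.54 against WT 10.47 and 10.46). *XTH17* (AT1G65310) fell by 1.24 on the log2 scale in *quad* at day 2 drought and by 1.41 at day 2 water, both at the p limit, and by less than 0.5 in the other conditions.

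*XTH15* (AT4G14130), known as a gene induced in shade avoidance, ran the other way. Its log2 intensity at day 0 was 11.41 and 11.22 in *quad* against 9.77 and 9.64 in WT, a log2 ratio of 1.61 ± 0.13 (SE, adjusted p = 7.80e-06) that was called. The ratio was 0.69 at day 2 drought and between 1.14 and 1.32 in the other 5 conditions, with a mean of 1.19 ± 0.05 (SE, adjusted p = 1.55e-08). Within each condition both *quad* channels lay above both WT channels. *EXPA20* (AT4G38210) was higher on 12 of 14 arrays by a small amount (mean log2 ratio 0.20, arrays between -0.25 and 0.70, adjusted p = 0.0175), and its adjusted p became 0.0505 without replicate 1 of day 2 drought.

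**Figure D2:**
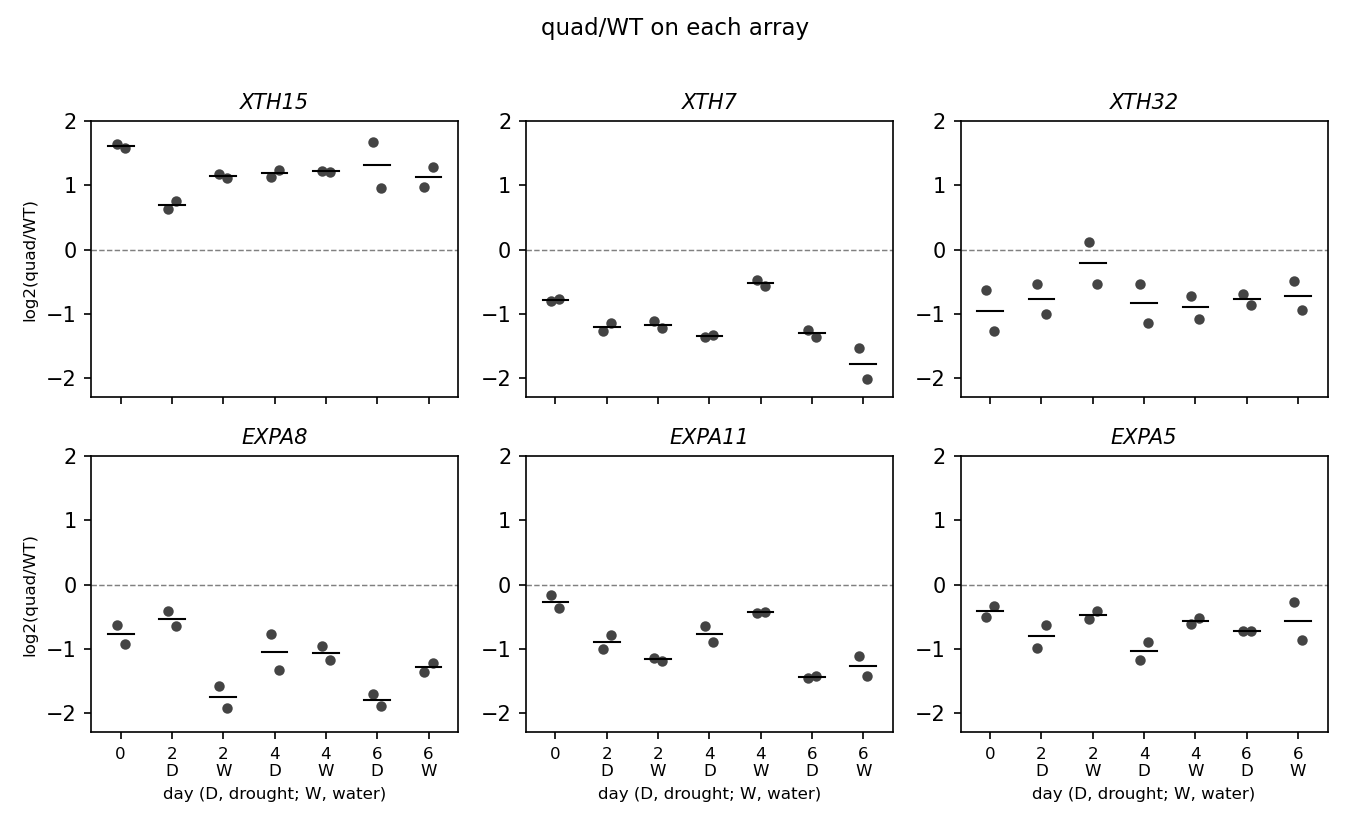
Log2 *quad*/WT ratio of each array (points) and mean of the 2 arrays (short bars) by condition for 6 members. The line at 0 separates higher from lower in *quad*: *XTH7*, *EXPA8*, *EXPA11* and *EXPA5* stay below it on all 14 arrays, *XTH15* stays above it, and *XTH32* has 1 point above it.

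At day 2 the group II *XTH* genes, many of which are transcribed mainly in roots, were mostly lower than WT under drought, whereas 7 of 14 were higher at the p limit under water. At day 2 drought 12 of 14 had a ratio below 0, with 10 lower and 1 higher at the p limit (24 of all 47 were lower), and at day 2 water 7 were higher and 1 lower. The 10 were 9 without either drought array, and the 7 were 3 without replicate 1 and 4 without replicate 2 of day 2 water. The change of the ratio between drought and water had a median of -1.25 in group II, with 10 of 14 lower and none higher at the p limit, also without any 1 of the 4 arrays. That median was -1.74 with the scanner's processed signals. *XTH12*, *XTH14* and *XTH21* were not above background in *quad* at day 2 drought, so the size of their change was not measured. Over all members 2 were higher and 16 lower for the drought minus water change of the ratio, against 6.02% and 15.1% of all genes, and 4 were called, against 2.71%. The 4 were *XTH19*, *XTH20*, *XTH23* and *EXPA17*, and 8 members were called without replicate 2 of day 2 drought. Both slides that held drought and water arrays of day 2 gave each of the 4 the same direction. Those slides hold the arrays of the fit, so this adds no independent support. Below the size limit but past the p limit came *XTH22* (-1.43), *XTH24* (-1.35), *XTH18* (-1.34) and *XTH13* (-1.08).

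*XTH20* (AT5G48070), one of the root-expressed group II genes, had the largest change. At day 2 drought it measured 7.08 and 7.44 in *quad* against 9.37 and 9.35 in WT, and at day 2 water 8.33 and 8.26 in *quad* against 6.81 and 7.06 in WT. *quad* was thus below WT under drought and above it under water, with no overlap in either. The log2 ratio was -2.10 ± 0.11 under drought (SE, adjusted p = 2.51e-07) and 1.36 ± 0.11 under water (adjusted p = 3.67e-06), and their difference was -3.47 ± 0.16 (adjusted p = 4.96e-08). Within a slide that difference was -3.82 and -3.12. At day 6 *XTH20* was higher in *quad* in both treatments, by 0.97 under drought and 1.49 under water on the log2 scale.

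*XTH19* (AT4G30290), a close relative of *XTH20*, had 6.95 and 7.13 in *quad* against 8.34 and 8.52 in WT at day 2 drought, and 7.88 and 7.59 in *quad* against 6.90 and 6.93 in WT at day 2 water. The change of its ratio was -2.21 ± 0.26 (SE, adjusted p = 7.64e-05). At day 6 it changed the same way, with 7.25 and 7.21 in *quad* against 7.68 and 8.52 in WT under drought, and 8.38 and 8.33 in *quad* against 7.81 and 7.53 in WT under water (change -1.55 ± 0.26, adjusted p = 0.00475). The WT replicates at day 6 drought differed by nearly as much as the groups, and the change became -1.11 without replicate 2 of that condition and -1.43 (adjusted p = 0.0512) without replicate 2 of day 6 water.

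*EXPA17* (AT4G01630), an expansin of lateral root formation, measured 8.01 and 8.25 in *quad* against 9.06 and 9.41 in WT at day 2 drought, and 9.85 and 9.75 in *quad* against 8.31 and 8.25 in WT at day 2 water. The log2 ratio under water, 1.52 ± 0.12 (SE, adjusted p = 3.46e-06), stood at the limit for a call and was 1.499 without replicate 1 of day 2 water, no longer past it. The change of the ratio between treatments was -2.63 ± 0.18 (SE, adjusted p = 1.00e-06). *XTH23* (AT4G25810), also named *XTR6*, had 8.57 and 8.45 in *quad* against 9.41 and 9.29 in WT at day 2 drought, and 9.50 and 9.50 in *quad* against 8.69 and 8.80 in WT at day 2 water, a change of -1.60 ± 0.23 (SE, adjusted p = 0.000347).

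The root hair members followed at lower intensity. *EXPA7* (AT1G12560), a root hair expansin, was at 5.96 and 6.39 in *quad* at day 2 drought, not well above background, against 7.67 and 7.80 in WT, which was at least 2.80-fold lower in *quad* (adjusted p = 4.42e-05). These bounds set the bright group's mean against the higher of the dim probe's own signal and the lowest signal well above background. Its fitted log2 ratio there, -1.56, became -1.41 without replicate 1 of that condition and was then not called. At day 6 water the order was turned, with 7.55 and 7.25 in *quad* against 6.18 and 6.22 in WT, not above background, at least 2.30-fold higher in *quad* (adjusted p = 0.000511). *EXPA18* (AT1G62980), its close relative of root hairs, was lower in *quad* on both arrays of day 2 drought, but their log2 ratios of -1.62 and -0.46 lay further apart than the size of their mean and 1 of 2 *quad* channels was above background.

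*XTH14* (AT4G25820), a further root hair gene, was at least 2.53-fold lower in *quad* at day 2 drought (5.90 and 6.39, not above background, against 7.62 and 7.55 in WT, adjusted p = 1.96e-05). *XTH12* (AT5G57530) was at least 2.16-fold lower and *XTH21* (AT2G18800) at least 1.97-fold lower in *quad* in the same condition. *XTH13* (AT5G57540), measured in all channels, had a log2 ratio of -0.92 there and of 1.17 at day 4 water. At day 4 water the order was turned for the dim genes too, *XTH12* and *XTH21* being at least 1.44-fold and 1.24-fold higher in *quad* (adjusted p = 0.00377 and 0.0275), with WT not above background. There *XTH14* had 6.84 and 6.95 in *quad* against 6.19 and 6.08 in WT, which again was not above background (adjusted p = 0.00307).

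The markers of root tissue moved with these genes in some conditions, but the root hair markers did not at day 2 water. At day 2 drought 10 of 12 root markers and 8 of 8 root hair markers were lower in *quad*, with medians of -1.66 and -0.51, and their summed log2 levels were 13.74 and 13.77 in *quad* against 14.53 and 14.33 in WT for root markers, and 9.25 and 9.38 in *quad* against 10.14 and 10.15 in WT for root hair markers. In that condition 1 of 8 root hair markers was above background in *quad* and 7 of 8 in WT. At day 2 water the summed log2 level of root markers was 14.22 and 14.10 in *quad* against 13.47 and 13.29 in WT. That of root hair markers overlapped there, with 9.38 and 9.29 in *quad* against 9.42 and 9.34 in WT. At day 6 water 10 of 12 root and 8 of 8 root hair markers were higher in *quad*, with medians of 1.01 and 0.52, and at day 4 water 8 and 4 were higher. The part of the root share of the material in the values of these members was not tested.

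**Figure D3:**
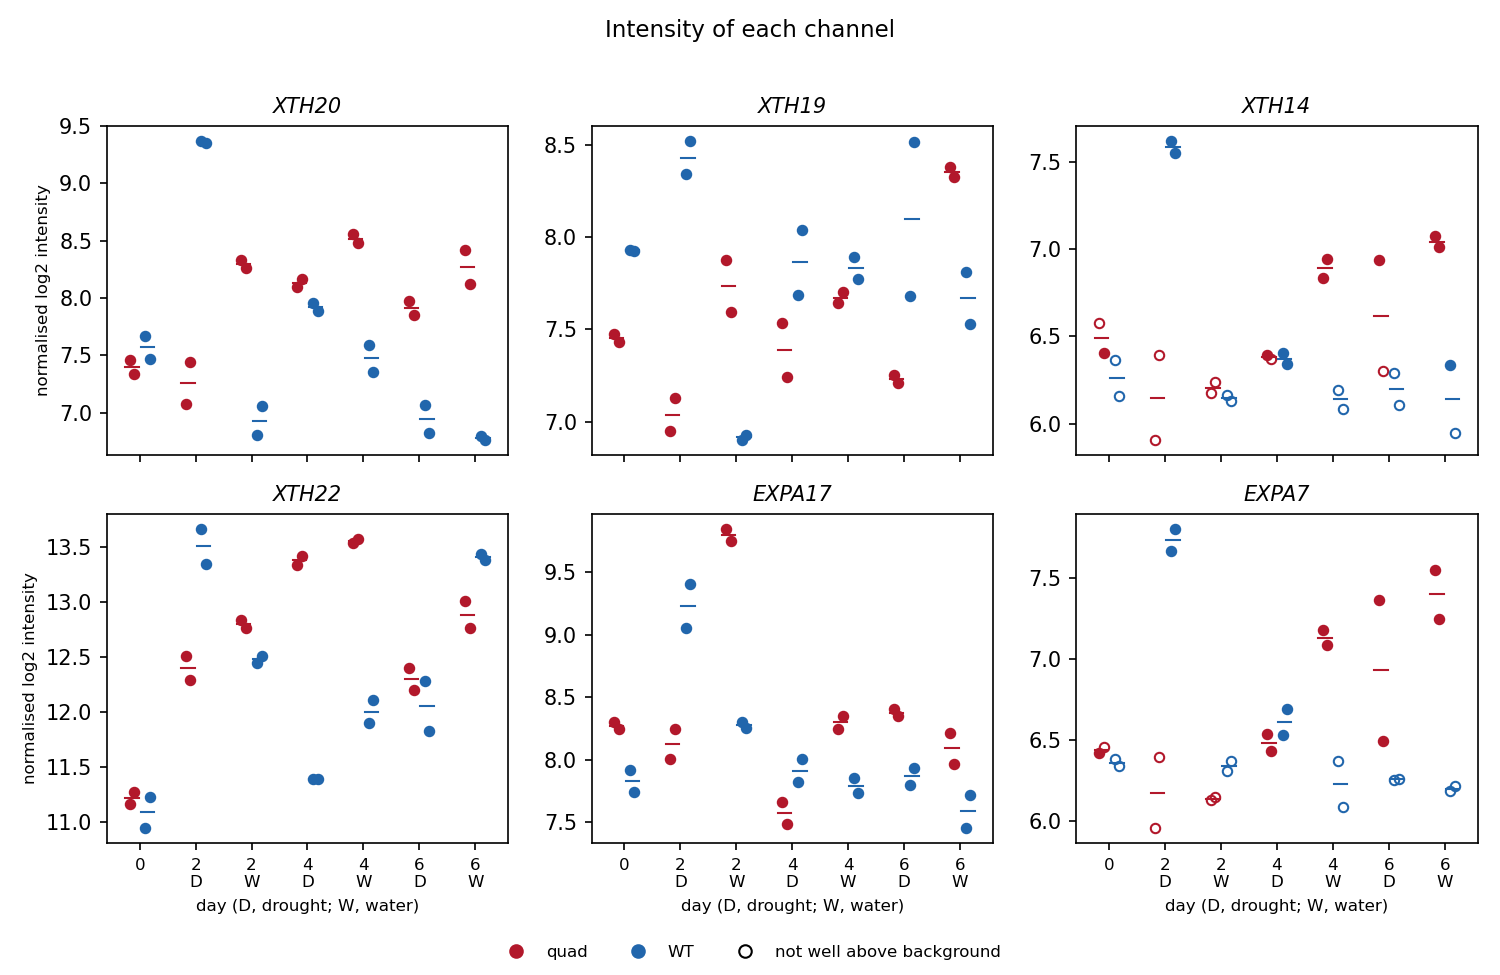
Normalised log2 intensity in *quad* and WT on each array (points) with the mean of 2 arrays (short bars) by condition for 6 members, open circles being channels not well above background. *XTH20*, *XTH19*, *EXPA17* and *EXPA7* have *quad* below WT at day 2 drought, and *XTH22* has *quad* above WT at both day 4 conditions.

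At day 4 the change of the ratio between drought and water was higher for 2 members and lower for 7 at the p limit, against 2.87% and 1.27% of all genes, and 1 was called (*XTH3*), against 0.785%. The 9 became 2 and 5 without replicate 1 and without replicate 2 of day 4 water, and 4 without either drought array. At day 6, 3 were higher and 3 lower, against 1.39% and 3.31%, and 2 were called (*XTH3* and *XTH19*), against 0.381%. Without replicate 2 of day 6 water, 2 of these 6 passed the p limit and 1 was called.

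*XTH22* (AT5G57560), better known as the touch- and BR-inducible gene *TCH4*, was higher in *quad* at day 4 and lower at day 2 drought. At day 4 drought it measured 13.34 and 13.42 in *quad* against 11.39 and 11.39 in WT (log2 ratio 1.99 ± 0.09, SE, adjusted p = 8.96e-07), and at day 4 water 13.54 and 13.57 in *quad* against 11.90 and 12.11 in WT (1.55 ± 0.09, adjusted p = 6.08e-07). Both were called, but the ratio under water was 1.46 without its replicate 1. At day 2 drought the intensities were 12.51 and 12.29 in *quad* against 13.67 and 13.35 in WT (log2 ratio -1.11, adjusted p = 7.45e-06), and at day 6 water the ratio was -0.52. The groups did not overlap in any of these conditions.

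*XTH23* shared the day 4 difference at a smaller size, with 9.28 and 9.51 in *quad* against 8.63 and 8.30 in WT under drought and 9.43 and 9.54 in *quad* against 8.42 and 8.65 in WT under water (log2 ratios 0.93 and 0.95). *XTH24* (AT4G30270), long known as *MERI5*, was higher by 1.29 on the log2 scale at day 2 water and had -0.95 at day 6 drought. *XTH25* (AT5G57550) had 1.04 at day 0 and -0.996 at day 6 water, and *XTH11* (AT3G48580), of group I, had 7.78 and 7.46 in *quad* against 6.41 and 6.29 in WT, not above background, at day 2 water, at least 2.29-fold higher in *quad* (adjusted p = 1.27e-05).

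*XTH3* (AT3G25050, group I) had the largest *quad*/WT difference of all members. It was not above background in either genotype at day 0. At day 4 water it was 5.87 and 6.37 in *quad*, not above background, against 9.24 and 9.24 in WT, at least 8.14-fold lower in *quad* (adjusted p = 6.71e-07). Under drought at day 2 it was 6.00 and 6.40 in *quad*, again not above background, against 8.03 and 8.16 in WT, at least 3.59-fold lower (adjusted p = 2.98e-05). So WT carried signal from day 2, when *quad* had none above background.

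In *quad*, *XTH3* came above background at day 4 drought, with 8.14 and 7.58 against 8.64 and 9.03 in WT (log2 ratio -0.98, adjusted p = 0.0100). At day 6 drought it was 8.90 and 8.88 in *quad* against 8.46 and 8.19 in WT (log2 ratio 0.57, adjusted p = 0.0803), and at day 6 water 7.43 and 7.28 in *quad* against 9.37 and 9.01 in WT (-1.84, adjusted p = 6.62e-05). The change of the ratio between drought and water was 2.41 ± 0.27 (SE, adjusted p = 0.000573) at day 6, and 2.14 ± 0.27 (adjusted p = 0.000568) at day 4, where the *quad* water arrays were below background. With no offset added to the signals the log2 ratio at day 4 water was -5.23, and with the scanner's processed signals it was -7.70, so its fitted size moved with the treatment of dim signals. The flower markers moved beside it at day 4, 8 of 12 being lower in *quad* under water (median -0.84) and 7 of 12 having a higher drought minus water change (median 0.80). At day 2 drought, by contrast, 8 of 12 were higher in *quad* (median 0.65). Their summed log2 level at day 6 water was 14.79 and 14.68 in *quad* against 14.63 and 14.39 in WT. At day 4 drought it was 14.29 and 14.16 in *quad* against 14.29 and 14.28 in WT. Their part in the *XTH3* values was not tested.

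Among the remaining expansins, *EXPA1* (AT1G69530), an expansin of guard cells, was lower in *quad* under late drought, but not only there. In all, 3 conditions passed the p limit as lower. It measured 12.48 and 12.50 in *quad* against 13.40 and 13.56 in WT at day 4 drought (log2 ratio -0.99), and 12.76 and 12.42 in *quad* against 14.08 and 13.28 in WT at day 6 drought (-1.09, adjusted p = 0.000102). At day 6 water it was level, 12.46 and 12.42 in *quad* against 12.55 and 12.38 in WT. At day 2 drought its log2 ratio was 0.04. Within a slide that ratio was above the one under water by 0.74 and 0.80, so the ratio at day 2 water was below 0. *EXPA10* (AT1G26770), an expansin of leaf growth with 2 probes, was lower at day 4 drought and day 6 drought (log2 ratios -0.76 and -0.53). At the p limit it was lower in 3 conditions and higher in 1, and its highest condition mean was 0.35 at day 2 water. *EXPA16* (AT3G55500) was lower at day 6 water (-1.01, adjusted p = 0.000191), with 9.08 and 8.21 in *quad* against 9.87 and 9.44 in WT.

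Drought against water within a genotype was read from single channels, because no array set the treatments side by side, so these values carry differences between arrays. At day 2 in *quad*, no member was higher and 8 were lower at the p limit, against 1.51% and 5.98% of all genes, and 1 was called (*EXPA17*, -1.67 ± 0.13, SE, adjusted p = 3.28e-08), against 0.490%. The 8 became 4 or 5 without any 1 of the 4 arrays. At day 2 in WT, 16 were higher and 2 lower, against 10.4% and 3.21%, and 2 were called, against 0.910%: *XTH20* (2.43 ± 0.13, adjusted p = 6.15e-11) and *XTH19* (1.52 ± 0.19, adjusted p = 9.18e-06). *XTH19* was at 1.43 and not called without replicate 2 of day 2 drought. Also past the p limit in WT were *XTH3* (1.39), *XTH18* (1.31), *XTH13* (1.15) and *XTH22* (1.03), and *EXPA7* was at least 2.54-fold higher under drought. In WT, group II had a median of 0.99, with 10 of 14 higher and none lower, and in *quad* of -0.09, with 4 lower and none higher (2 lower without any 1 array). The root markers had a median of 1.67 in WT (11 of 12 higher) and -0.06 in *quad* (3 lower), and their part was not tested. With arrays only centred on their median, 1 member in *quad* and 4 in WT passed the p limit at day 2.

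Day 4 had the fewest members at the p limit. In *quad* 1 member was higher and 5 lower at the p limit, against 3.14% and 1.98% of all genes, and *XTH3* was called, against 0.331%. *XTH3* was at least 3.12-fold higher under drought in *quad* (adjusted p = 7.46e-06), with a fitted log2 value of 1.74 that became 1.48 without replicate 1 of day 4 water and 1.46 without replicate 1 of day 4 drought, no longer called. In WT 1 was higher and 2 lower, against 0.632% and 1.56%, and none was called (0 at this limit, 3 at the p limit), against 0.225%. Of those 3, 1 passed without either water array and none without either drought array. With arrays only centred on their median, the median over all genes itself shifted by -0.53 in *quad* and -0.64 in WT at day 4, so no level of the family is read from that day. In that setting no member passed the p limit in either genotype at day 4.

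**Figure D4:**
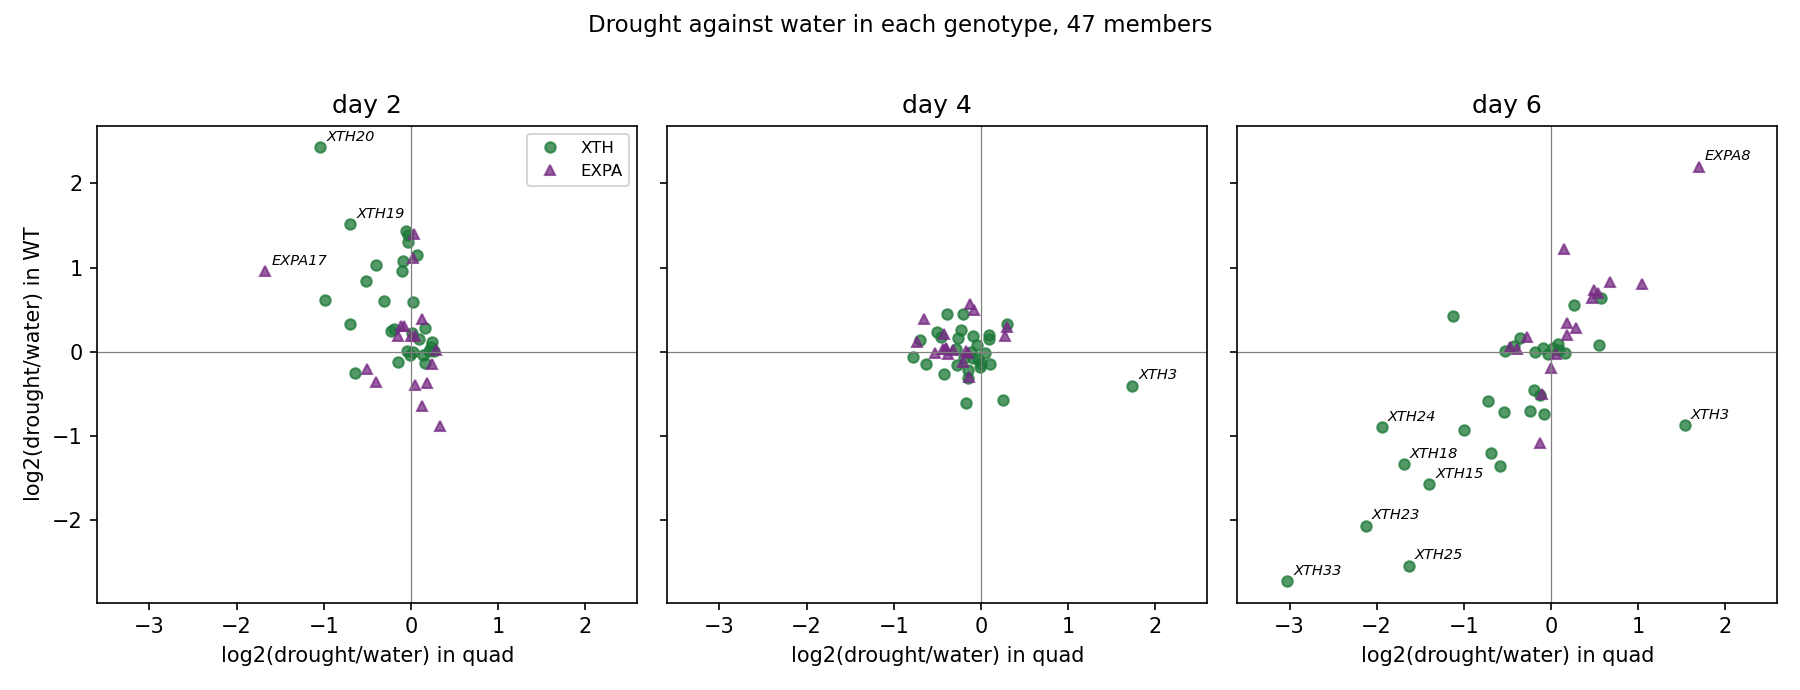
Log2 drought/water of the 47 measured members in *quad* (horizontal axis) and WT (vertical axis) at days 2, 4 and 6, one point per member, with called members named. At day 2 *XTH20* and *XTH19* stand high on the WT axis, and at day 6 *XTH33*, *XTH23* and *XTH25* lie at the lower left and *EXPA8* at the upper right.

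At day 6, drought lowered many *XTH* genes and raised several expansins in both genotypes, whose channels lie on the same arrays. In *quad*, 9 members were higher and 13 lower under drought at the p limit, against 7.44% and 10.6% of all genes, and 7 were called, against 0.994%. In WT, 9 were higher and 17 lower, against 7.43% and 7.75%, and 5 were called, against 0.424%. By family, 3 *XTH* genes were higher and 13 lower in *quad* (median -0.30), and 2 higher and 15 lower in WT (median -0.49). Of the *EXPA* genes, 6 were higher and none lower in *quad* (median 0.18, or 0.03 without replicate 1 of day 6 drought), and 7 higher and 2 lower in WT (median 0.28). All 14 measured group II genes had a value below 0 in *quad* (median -0.84, 10 lower), and 9 of 14 did in WT (median -0.91, 8 lower). Among the markers, 8 of 12 root and 5 of 12 flower markers were lower under drought in *quad*, against 2 and 7 in WT, and their part was not tested. The member counts rest on the normalisation. With arrays only centred on their median, 4 members in *quad* and 4 in WT passed the p limit at day 6.

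*XTH33* (AT1G10550), a group III enzyme held at the plasma membrane, had the largest drop. In *quad* it measured 7.87 and 7.76 under drought against 10.83 and 10.85 under water (log2 -3.02 ± 0.10, SE, adjusted p = 1.76e-13). In WT it measured 7.72 and 7.88 under drought against 10.44 and 10.61 under water (-2.73 ± 0.10, adjusted p = 6.64e-13). *XTH23* came next, with 8.28 and 7.98 under drought against 10.24 and 10.28 under water in *quad* (-2.13, adjusted p = 6.21e-09), and 7.42 and 7.84 against 9.76 and 9.64 in WT (-2.07, adjusted p = 1.49e-08). The change of the *quad*/WT ratio between treatments was -0.30 ± 0.13 for *XTH33* and -0.06 ± 0.23 for *XTH23* (SE), neither past the p limit.

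*XTH25* fell to 8.82 and 8.93 under drought in *quad*, against 10.53 and 10.48 under water (-1.63 ± 0.31, SE, adjusted p = 0.000643), and to 8.11 and 9.81 under drought in WT, against 11.42 and 11.59 under water (-2.54 ± 0.31, adjusted p = 6.76e-06). Its WT drought arrays lay further apart than those of the other *XTH* genes called at day 6. *XTH24* was called in *quad* alone, with 10.53 and 10.46 under drought against 12.38 and 12.49 under water (-1.94, adjusted p = 1.73e-09), and in WT it was -0.90 (adjusted p = 4.89e-05). The difference between the genotypes for *XTH24* passed the p limit, at -1.04 ± 0.17 (SE, adjusted p = 0.00465). *XTH18* (AT4G30280) was called in *quad* (-1.69, adjusted p = 1.90e-08) and at -1.33 in WT (adjusted p = 7.94e-07), where the difference of -0.36 missed the p limit (adjusted p = 0.252).

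*XTH15* was called in WT (-1.58 ± 0.15, SE, adjusted p = 3.49e-07), with 9.58 and 10.31 under drought against 11.63 and 11.42 under water, and was at -1.40 in *quad* (adjusted p = 1.02e-06), with 11.26 and 11.27 against 12.61 and 12.71. The WT value became -1.22 without replicate 1 of day 6 drought and -1.48 without replicate 1 of day 6 water, and was then not called. *XTH22* was at -0.59 in *quad* (adjusted p = 0.00405) and -1.36 in WT (adjusted p = 6.75e-07), and *XTH16* (AT3G23730) at -1.002 in *quad* and -0.93 in WT. *XTH13* was at -0.69 in *quad* and -1.21 in WT, both past the p limit. *EXPA16* was at -0.12 in *quad* (adjusted p = 0.747) and -1.08 in WT (adjusted p = 0.000696), a difference of 0.96 (adjusted p = 0.00671).

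*EXPA8* was the member that drought raised most at day 6, to 11.40 and 11.37 in *quad*, against 9.70 and 9.69 under water (1.70 ± 0.14, SE, adjusted p = 2.13e-08), and to 13.11 and 13.26 in WT, against 11.05 and 10.92 under water (2.20 ± 0.14, adjusted p = 8.21e-10). The change of its *quad*/WT ratio was -0.50 ± 0.19 (SE) and missed the p limit (adjusted p = 0.194). *EXPA3* (AT2G37640) was at 1.04 in *quad* and 0.81 in WT, both past the p limit, and *EXPA1* at 0.15 in *quad* (adjusted p = 0.624) and 1.22 in WT (adjusted p = 3.96e-05). For *EXPA1* the genotypes differed in that response, by -1.07 (adjusted p = 0.00310). *XTH3* was called in *quad* (1.54 ± 0.20, adjusted p = 9.28e-06) and was at -0.87 in WT (adjusted p = 0.00442). It was at 1.46 and not called in *quad* without replicate 2 of day 6 water. On both slides that held drought and water arrays of day 6, each of the 7 members called in *quad* and of the 5 called in WT had the direction of the fit. These are the same arrays as in the fit, so the agreement adds no independent support. With arrays only centred on their median, 4 members were called in *quad* and 2 in WT.

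**Figure D5:**
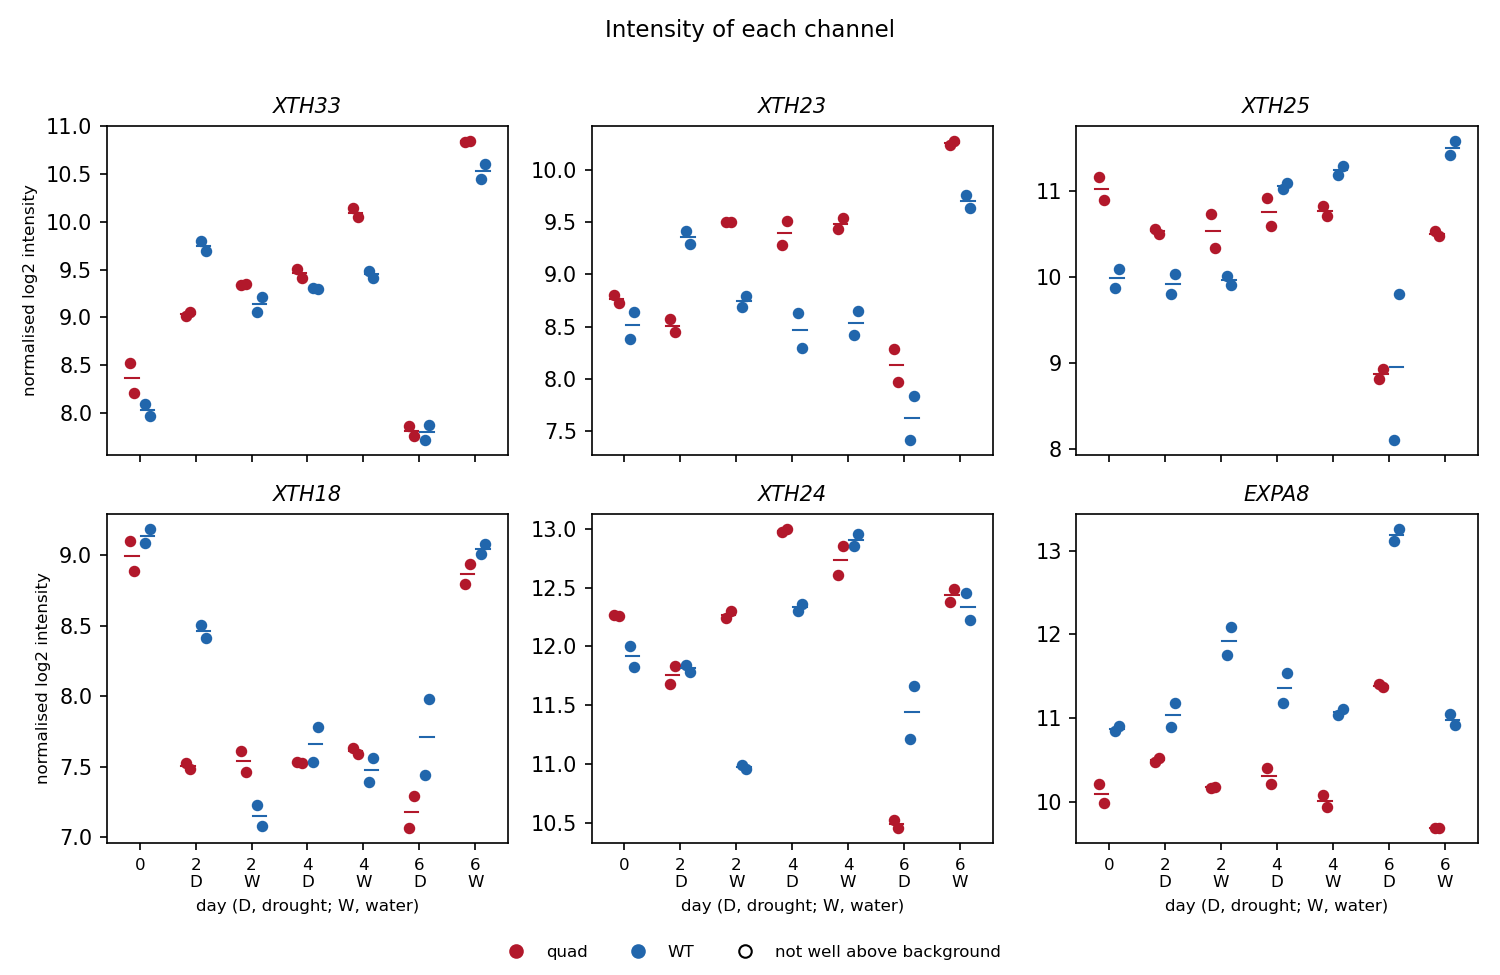
Normalised log2 intensity in *quad* and WT on each array (points) with the mean of 2 arrays (short bars) by condition for 6 members. At day 6 the drought points of *XTH33*, *XTH23*, *XTH25*, *XTH18* and *XTH24* lie below the water points in both genotypes, and those of *EXPA8* above them.

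Other wall genes gave the setting. Of 9 further expansins tested (the beta-expansins, expansin-like genes and *EXPA12* on the list), 3 were higher and 6 lower in the mean over conditions, with a median log2 ratio of -0.18. *EXPB2* (AT1G65680) was called at day 2 water (1.62 ± 0.13, SE, adjusted p = 2.70e-06) and for its drought minus water change at day 2 (-1.51, adjusted p = 8.82e-05). *EXLA1* (AT3G45970) was called under drought at day 6, at -1.78 in *quad* and -2.18 in WT (adjusted p = 1.01e-07 and 1.25e-08). Of 10 genes that build or trim xyloglucan, 6 were lower and none higher (median -0.11), and of 8 genes of cellulose synthesis in the primary wall, 7 were lower and none higher (median -0.17), with no call in either list in any comparison. Over all genes that mean had 17.5% higher and 19.4% lower at the p limit.

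The other members stayed closer to WT. In no condition did *EXPA4* (AT2G39700), *EXPA9* (AT5G02260), *EXPA20*, *XTH5* (AT5G13870), *XTH28* (AT1G14720), *XTH29* (AT4G18990), *XTH30* (AT1G32170) or *XTH31* (AT3G44990) pass the p limit, 8 of 47 in all. The share of all genes that passed it in no condition was not computed. The condition means of *XTH5* spanned 0.25 on the log2 scale, the narrowest range of the 47, whereas those of *XTH20* spanned 3.59 and those of *XTH22* 3.10. For *XTH3* no range is given, because its ratios in both day 2 conditions and at day 4 water are bounds. At day 0 neither genotype was above background for it. For *XTH5* the replicates of 1 condition differed by up to 0.38, more than its conditions did.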

How the data were processed

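The deposited scanner files hold, per the file headers, Feature Extraction 10.5.1.1 output of 2-colour Agilent arrays of poly(A) RNA: linear intensity signals of 45210 spots and a log10 ratio. That ratio served only to check the deposited ratios. Normalised log2 ratios (Cy5/Cy3) deposited by the authors served as an alternative. The columns of all 14 arrays were mapped. From the raw median signals of both channels, background was corrected by normexp (offset 50) and dyes were normalised by loess. The mean log intensity of the 2 channels was then quantile-normalised between arrays (Aquantile), which leaves the ratios unchanged. These steps used limma 3.58.1 (R 4.3.3, statmod 1.5.0, data.table version 1.17.8). They left out 1417 control spots and outlier spots (1 to 126 an array, and no spot was saturated). Spots of a probe were averaged, and of several probes of a locus (4940 loci) the brightest was kept. Background flags removed 5516 loci. An offset shrinks ratios of dim probes.

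Ratios were turned to *quad* over WT and fitted with lmFit and eBayes, with a coefficient for each of 7 conditions (residual df 7, prior df 4.81). Drought against water within a genotype used lmscFit on 28 channels (22642 genes, intraspot correlation 0.249). The model fits were tested on simulated data. Adjusted p-values are Benjamini-Hochberg over all genes tested in a contrast. Errors are standard errors of the fit.

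Members, lists and tests were chosen with earlier results of these data known. Values are named for members called in any of 17 contrasts, for the 3 highest and 3 lowest *XTH* and the 2 highest and 2 lowest *EXPA* genes by mean *quad*/WT ratio, and for members past the p limit with an absolute log2 over 1. All 51 members matched RefSeq loci, 47 under the same symbol. Slides (4) were checked as batches: those of days 2 and 6 held drought and water arrays of the same replicate. Alternatives were no offset, the scanner's processed signals, median centring, the deposited ratios, no background filter, the mean over probes, masked spots, slide or replicate as a block, the p limit alone, and leaving out each array.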

Additional observations from a re-analysis of the deposited data

Results flagged for a closer look

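For 7 member and day pairs the drought effect differed between the genotypes by a test of the difference itself (limma, the change of the log2 *quad*/WT ratio between drought and water, called at the limits used throughout). At day 2 these were *XTH20* (-3.47), *EXPA17* (-2.63), *XTH19* (-2.21) and *XTH23* (-1.60), which were lower in *quad* than in WT under drought and higher under water on both arrays of each. At day 4 it was *XTH3* (2.14), with 1 of the 4 groups not above background. At day 6 they were *XTH3* (2.41) and *XTH19* (-1.55), the second of which was not called without replicate 2 of day 6 drought or replicate 2 of day 6 water. Of 12 root markers, 10 were lower in *quad* at day 2 drought by an adjusted p under 0.05, and 4 of 12 were higher by it at day 2 water. Of 12 flower markers, 8 were lower at day 4 water. The part of these lists in these values was not tested.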

How the results depend on the processing

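Some family medians near 0 changed sign with the scaling, among them those of the *EXPA* genes at day 0 and day 6 water, 0.04 and 0.11 with median centring. The alternatives gave 645 values for 45 results of single members, those called and the extremes by mean ratio. None changed direction, but they were picked for their size from these same data, so that was nearly fixed in advance. Of the 645, 620 kept their side of the limits and 25 fell short of them. Of these, 11 did so with median centring alone, 2 with the slide as a random block (correlation 0.400) and the rest without 1 array. The cause was not tested. *EXPA17* at day 2 water was 1.49 with the slide block, *XTH19* in WT at day 2 was 1.46 with median centring, and the mean ratio of *EXPA20* then had an adjusted p of 0.187 and 0.154, with the slide block and with median centring.

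Counts of members called, given in the order of the report, moved with the treatment of dim signals, with the normalisation and with the limit. With no offset they were 9 under drought and 5 under water at day 2, 7 under water at day 4, 4 under drought and 7 under water at day 6 and 1 in the mean, 12 and 5 for the drought minus water change at days 2 and 4, and 9 for WT at day 2. With the scanner's processed signals they were 9, 7, 5 (day 4 drought), 8, 5, 8, 1, 12, 6, then 3 for *quad* at day 4 and 11, 2 and 8 for WT at days 2, 4 and 6. With median centring alone they were 0 for the change at day 6, 0 and 4 for *quad* at days 4 and 6, and 1 and 2 for WT at days 2 and 6, where all genes shifted by 0.12 at day 6 water. The slide block left 1 at day 2 water. By the p limit alone they were 13, 26, 21, 17, 21, 16, 26 and 29, then 18, 9 and 6 for the change, 8, 6 and 22 for *quad* and 18, 3 and 26 for WT. With median centring, 9, 1 and 0 members passed the p limit for the change at days 2, 4 and 6.

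Without 1 array, the calls ranged over 2 to 5 under drought and 1 to 4 under water at day 2, 1 to 2 under water at day 4, 1 to 2 under drought and 2 to 3 under water at day 6, 4 to 8 and 1 to 2 for the change at days 2 and 6, 0 to 1 and 6 to 7 for *quad* at days 4 and 6, and 1 to 2 and 4 to 7 for WT at days 2 and 6. With the replicate block, the deposited ratios, no filter, the mean over probes or masked spots (20 on 1 array), these counts stayed within 1.5 times. Same-numbered arrays deviated together in 19 of 21 pairs of conditions (correlation 0.00402 to 0.634), but the number is also the dye orientation and nothing in the labels pairs it; with the block, members at the p limit for the change were 24, 16 and 13 at days 2, 4 and 6, against 18, 9 and 6. Signal near background limits *XTH3*, *EXPA7*, *EXPA18*, *XTH11*, *XTH12*, *XTH14* and *XTH21*, whose ratios are bounds where 1 genotype was dim. *XTH10*, *XTH29* and *XTH31* were also above background in only some channels.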
